A study of Gasterosteus aculeatus with 12 samples.

Results

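The 41 consecutive stickleback gene identifiers ENSGACG00000019030 to ENSGACG00000019070 were described across kidney libraries of threespine stickleback (Gasterosteus aculeatus). They were taken by identifier from a table of 20860 genes, and the stretch itself was chosen by measured values, namely the FPKM of freshwater fish kept in sea water (FW33K), whose most abundant genes it holds. All levels are in FPKM (sequenced fragments scaled to the length of the transcript and to the mapped fragments of the library), a measure that is relative to the rest of the same library. The 5 genes with the highest mean FPKM in the FW33K group all fell in the stretch. Since FW33K values chose the genes, every value of theirs in FW33K is given here as a description and was not tested.

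The study followed gene expression in the kidney as sticklebacks acclimated for 30 days to water of a set salinity. Freshwater fish from a lake were kept at 0 g/L (FW00K), 11 g/L (FW11K) or 33 g/L (FW33K), and marine fish from a bay were kept at 33 g/L (SW33K), with 3 libraries in each of the 4 groups. Per the labels, every fish was an adult female and every sample was kidney. No treatment beyond salinity was named. Marine fish at a lower salinity are not analysed here, so SW33K differs from FW00K and from FW11K in both population and salinity, and these cannot be told apart. Reads of the marine fish were also aligned with 3 allowed mismatches where those of the freshwater fish had 2, which cannot be told apart from population either.

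The fish kidney filters blood, reclaims or secretes ions, and holds blood-forming tissue. In threespine stickleback it has a further role. Breeding males make spiggin there, a family of secreted glue proteins with which they bind their nests, and androgens are known to switch it on. None of the 6 abundant identifiers described below was paired with a gene name by the sources used here, and no sequence was at hand to name them. Of the identifiers within 200 of the stretch, 24 could be paired with a symbol, and 3 of these are inside it. These are ENSGACG00000019036 (SLC2A13, copy 1 of 2, known in mammals as an inositol transporter), ENSGACG00000019040 (B3GNT1, a glycosyltransferase of sugar-chain synthesis) and ENSGACG00000019068 (PYROXD1, an oxidoreductase). Of the 24, 13 shared their symbol with a gene of the RefSeq annotation of assembly fGasAcu3.hap1.1, and 7 of those 13, PYROXD1 among them, lay on its chromosome 4 in exactly the reverse of identifier order. The other 6 lay on other chromosomes, so neighbouring identifiers need not be neighbouring genes. In that annotation 3 spiggin genes (spg-1c, spg2 and spg1) lie near pyroxd1, with 3, 4 and 8 protein-coding genes in between. This is a statement on gene order in one assembly, and does not identify any of the 6.

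Libraries differed beyond their groups in ways that touch these values. Replicates 2 and 3 correlated at 0.990 to 0.992 in every group, while replicate 1 correlated with them at 0.846 to 0.945 (across genes, on log2(FPKM + 1)). The report therefore gives replicate 1 apart, and gives counts of calls with replicates 2 and 3 averaged beside the others. The other fits take all libraries as independent, which was not tested. If replicates 2 and 3 are not independent, the SD, SE and adjusted p given here may be too small. The table gives no counts, so the number of reads behind a single value is unknown here. The study lists the reads used in mapping by library, with far fewer for FW11K replicate 1 and FW33K replicate 1 than for any other. The effect of this lower depth on the values was not tested.

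Within the stretch, 6 identifiers reached at least 1000 FPKM in at least 1 library, a limit chosen after the values were seen. They were ENSGACG00000019037, ENSGACG00000019053, ENSGACG00000019056, ENSGACG00000019061, ENSGACG00000019063 and ENSGACG00000019064. Another 22 identifiers lie between the first and the last of them. The other 35 members never exceeded 122 FPKM in any library and never exceeded 68.1 FPKM in FW33K. The 5 rows before and the 5 rows after the stretch ranged from 0 to 210.2 FPKM.

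ENSGACG00000019061 was the most abundant. It stood at 130.7, 1073 and 1286 FPKM in FW00K replicates 1, 2 and 3, and at 767 FPKM in FW11K replicate 1 but 26.1 and 39.7 FPKM in FW11K replicates 2 and 3. It stood at 62487, 42149 and 44353 FPKM in FW33K and at 50698, 4952 and 5463 FPKM in SW33K. It was thus the first-ranked gene of all 3 FW33K libraries and of SW33K replicate 1. The FW33K mean was 59.8 times the FW00K mean, and the SW33K mean was 24.5 times it.

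ENSGACG00000019037 followed it closely. Its FW00K values were 121, 909 and 1220 FPKM, and its FW11K values 771, 21.8 and 35.4 FPKM. In FW33K it had 57522, 34929 and 41878 FPKM, and in SW33K 46227, 4177 and 5460 FPKM. This gene ranked 2 in all 3 FW33K libraries and in SW33K replicate 1, and its FW33K mean was 59.7 times the FW00K mean.

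ENSGACG00000019063 had 59.7, 378 and 408 FPKM in FW00K and 214, 7.41 and 9.91 FPKM in FW11K. It had 20490, 12713 and 14360 FPKM in FW33K and 24918, 1833 and 2215 FPKM in SW33K. Here SW33K replicate 1 exceeded every FW33K library, and SW33K replicates 2 and 3 lay far below them.

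ENSGACG00000019056 differed from these in FW33K, where its 3 libraries were nearly equal at 15164, 15984 and 15749 FPKM. Its FW00K values were 30.3, 386 and 395 FPKM, its FW11K values 184, 8.81 and 11.5 FPKM, and its SW33K values 10080, 1155 and 1299 FPKM. All FW33K libraries were above all SW33K libraries.

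ENSGACG00000019053 had the widest contrast between the freshwater groups. It stood at 18.8, 221 and 241 FPKM in FW00K and at 20.7, 7.30 and 11.5 FPKM in FW11K. In FW33K it had 30038, 14277 and 14606 FPKM, but in SW33K only 5224, 290.0 and 303 FPKM. The FW33K mean was 122 times the FW00K mean and the SW33K mean was 0.0987 of the FW33K mean. All FW33K libraries were above all SW33K libraries, and SW33K replicates 2 and 3 were close to FW00K replicates 2 and 3.

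ENSGACG00000019064 was the least abundant of the 6 and the one whose pattern differed most. It had 8.23, 39.2 and 42.8 FPKM in FW00K and 2724, 2400 and 2593 FPKM in FW33K. In FW11K replicate 1 it stood at 513 FPKM against 2.84 and 3.72 FPKM in replicates 2 and 3, a ratio of 156 between replicate 1 and the mean of the others. In SW33K it had 3963, 1215 and 1425 FPKM, so replicate 1 was above every FW33K library and replicates 2 and 3 were below them by less than for the other 5.

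**Figure D1:**
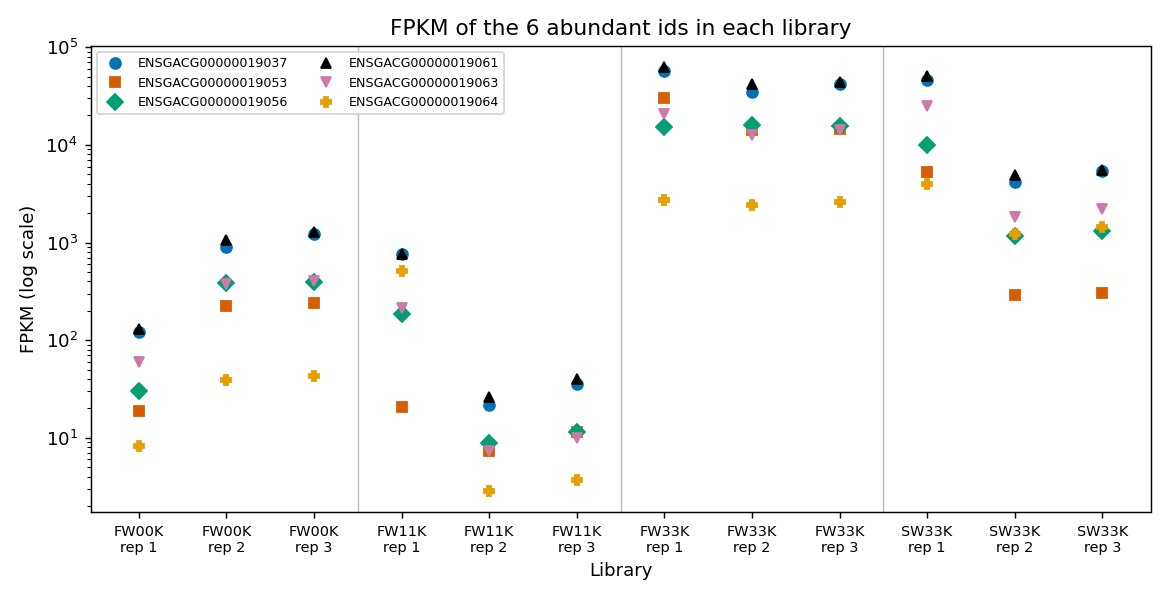
FPKM (log axis) of the 6 abundant identifiers in each of the 12 libraries, with 1 point for each gene and library and grey lines between groups. The FW33K libraries and SW33K replicate 1 hold the highest values of every gene (2400 to 62487 FPKM), and FW11K replicates 2 and 3 hold the lowest.

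Without a test, the 6 genes can be set against the background of the 15503 genes whose FPKM averaged 1 or more. All 3 FW33K libraries were above all 3 FW00K libraries in 6 of the 6, where 3.92% of all genes were, and above all FW11K libraries in 6 of the 6, where 3.55% were. These counts follow from how the genes were chosen. All SW33K libraries were above all FW00K libraries in 6 of the 6 as well (5.49% of all genes) and above all FW11K libraries in 6 of the 6 (7.50% of all genes). The high SW33K values were known when the genes were chosen, so these SW33K counts are not independent of the choice either. FW33K lay wholly above SW33K in 2 of the 6 (4.66% of all genes), ENSGACG00000019053 and ENSGACG00000019056. FW11K and FW00K overlapped in all 6. For comparison, 6.97% of all genes lay wholly above and 37.7% wholly below in FW11K.

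Added together, the 6 genes took 33.3, 17.9 and 20.2% of the FPKM sum of the FW33K libraries. They took 22.9% of SW33K replicate 1 but 1.63 and 1.96% of replicates 2 and 3. In FW00K their share was 0.0528, 0.401 and 0.484%, and in FW11K it was 0.270, 0.00783 and 0.0119%. The group means were 23.8% ± 8.33 (SD, n = 3) in FW33K, 8.82% ± 12.2 in SW33K, 0.313% ± 0.229 in FW00K and 0.0965% ± 0.150 in FW11K. The SD exceeded the mean in SW33K and in FW11K, and in both replicate 1 held the highest share. The other 35 members together took 0.0463 to 0.0998% of every library. With all 41 members summed, FW33K stood at 48.7 times FW00K, and SW33K at 18.8 times FW00K, or 5.06 times without SW33K replicate 1. The FW33K ratio was 36.7 without FW00K replicate 1.

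**Figure D2:**
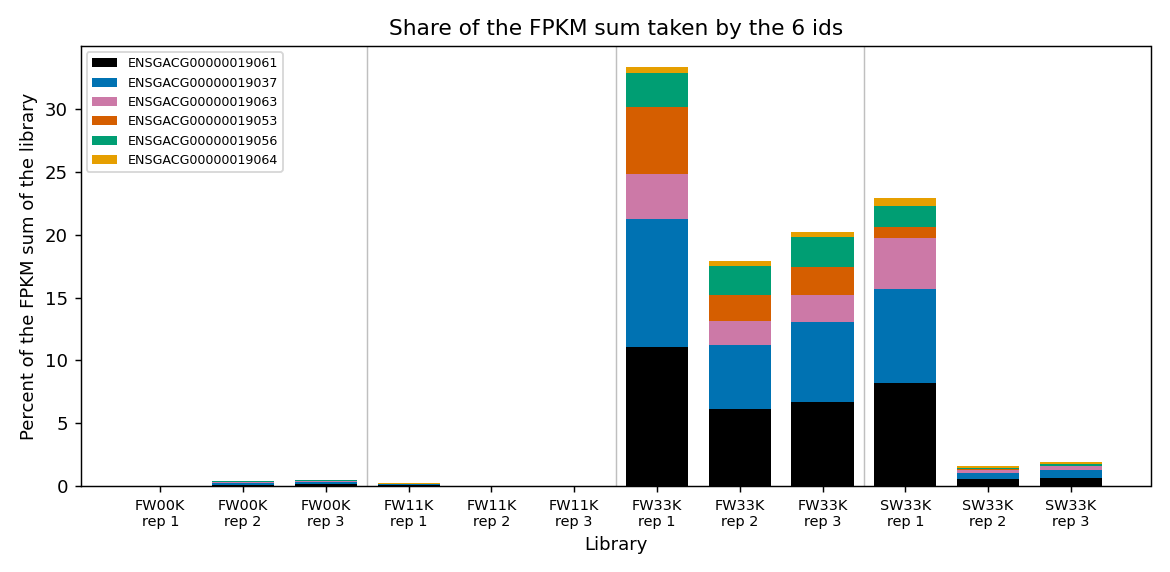
Percent of the FPKM sum of each library taken by each of the 6 identifiers, stacked. The share is 17.9 to 33.3% in FW33K and 22.9% in SW33K replicate 1, and at most 1.96% in each of the other 8 libraries.

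Since FPKM is relative, a library in which a few genes take so large a share has less left for the rest. The FPKM sum of all genes outside the stretch was 376830, 562019 and 527615 in FW33K and 475480 in SW33K replicate 1. It was 697702 to 746017 in FW00K, 912615 to 947674 in FW11K, and 819139 and 809261 in SW33K replicates 2 and 3. The FPKM sum of all genes also differed, from 565518 in FW33K replicate 1 to 948341 in FW11K replicate 2. The part of the 6 genes in these differences was not tested. The median log2 difference of all tested genes was -1.20 between FW33K and FW00K and -0.69 between SW33K and FW00K. With the FPKM sum outside the stretch made equal between libraries those medians were -0.73 and -0.62. With scaling by the median ratio over genes the FW33K median was -0.03, but that scaling removes such a shift by construction. Between FW11K and FW00K the median was -0.34, and -0.64 with equal sums. The ratio of the summed members between FW33K and FW00K was 78.4 with equal sums and 132 with median-ratio scaling, so the direction was the same on each scale.

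Replicates 2 and 3 were alike in the 6 genes, with the sum of the 6 in replicate 3 at 1.09 to 1.51 times that in replicate 2. Replicate 1 departed from them in each group, but not in 1 direction. Its sum was 0.112 of the mean of replicates 2 and 3 in FW00K, 26.6 times it in FW11K, 1.47 times it in FW33K and 9.47 times it in SW33K. Taken as ratios, the gap between replicate 1 and the other FW11K libraries was wider than that between the FW00K and FW11K means. This held for every one of the 6 except ENSGACG00000019053. In bulk kidney RNA, fewer cells of a type and less RNA per cell cannot be told apart.

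The 6 genes kept their proportions to one another to different degrees. Taken as a ratio to ENSGACG00000019061 in the same library, ENSGACG00000019037 lay between 0.829 and 1.00 in all 12 libraries, although its level ranged 2640-fold. The ratio of ENSGACG00000019056 lay between 0.199 and 0.379, and that of ENSGACG00000019063 between 0.250 and 0.492. By contrast, the ratio of ENSGACG00000019053 ranged from 0.0269 in FW11K replicate 1 to 0.481 in FW33K replicate 1. In SW33K it was 0.103, 0.0586 and 0.0554, below all FW33K libraries (0.329 to 0.481) and all FW00K libraries (0.144 to 0.206). The ratio of ENSGACG00000019064 was 0.0332 to 0.0630 in FW00K and 0.0436 to 0.0585 in FW33K, but 0.669 in FW11K replicate 1 and 0.0782, 0.245 and 0.261 in SW33K. Across the 12 libraries, Pearson's r of log2(FPKM + 1) between pairs of the 6 ranged from 0.825 (ENSGACG00000019064 with ENSGACG00000019053) to 0.9997 (ENSGACG00000019061 with ENSGACG00000019037). Whether similar copies shared reads in the counting was not tested.

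**Figure D3:**
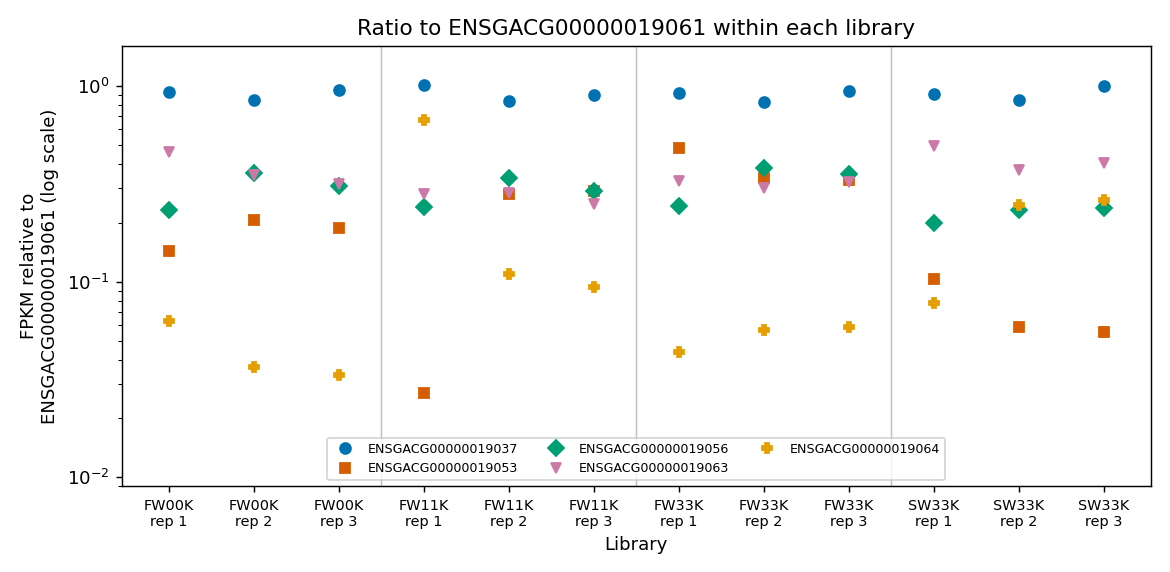
FPKM of 5 of the identifiers relative to ENSGACG00000019061 in the same library (log axis), with grey lines between groups. ENSGACG00000019037 stays between 0.829 and 1.00, while ENSGACG00000019053 and ENSGACG00000019064 move in opposite directions in FW11K replicate 1 (0.0269 and 0.669).

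Comparisons without FW33K were tested with limma on log2(FPKM + 1), with Benjamini-Hochberg adjustment over the 15503 genes and a threshold of 0.01. All fold changes below are on that scale, which understates changes of low genes. Between FW00K and FW11K none of the 6 passed, nor did any of the 30 members tested, where 4.46% of all genes did (0.284% higher and 4.17% lower in FW11K). At an unadjusted p under 0.05, 9 of the 30 members passed, and 4850 of all genes. The log2 fold changes of the 6 in FW11K lay between -2.97 and -0.27, with SE from 1.09 to 1.41 and adjusted p from 0.0826 to 0.918 (limma). For ENSGACG00000019064 the mean and the fit differed in sign, since its FW11K mean was 5.76 times the FW00K mean through replicate 1. Without FW11K replicate 1 the 6 values lay between -4.46 and -2.57, with adjusted p from 0.0101 to 0.0730, and none passed.

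Between FW00K and SW33K, 1 of the 6 passed upward, where 1.66% of all genes did. The high SW33K values were known when the genes were chosen, so this call is not independent of the choice. ENSGACG00000019064 was higher by 6.23 (SE 1.41, adjusted p = 0.00462, limma), with all 3 SW33K libraries above all 3 FW00K libraries. The other 5 had log2 fold changes from 2.92 to 4.46 and adjusted p from 0.0124 to 0.0472. The call of ENSGACG00000019064 was lost without SW33K replicate 1 (adjusted p = 0.0291) or replicate 3 (0.0114), and on leaving out FW00K replicate 1, 2 or 3 (0.0260, 0.0113 and 0.0107). Without a filter on low values it was lost as well (0.0149), while with replicates 2 and 3 averaged it passed (0.00933). Without SW33K replicate 1 none of the 6 passed, with log2 fold changes from 1.54 to 5.70. Without FW11K replicate 1, whose spread also enters the fit, 5 of the 6 passed, all but ENSGACG00000019053.

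Between FW11K and SW33K, 6 of the 6 passed upward, where 2.19% of all genes did. This count, too, is not independent of the choice of genes. The log2 fold changes lay between 5.88 and 7.43, with SE from 1.09 to 1.41 and adjusted p from 0.00100 to 0.00523 (limma). The highest was that of ENSGACG00000019063, and the lowest that of ENSGACG00000019053. All SW33K libraries were above all FW11K libraries for each of the 6. Without SW33K replicate 1 the values lay between 4.50 and 6.22, and 2 of the 6 passed, ENSGACG00000019053 (adjusted p = 0.00737) and ENSGACG00000019063 (0.00662). Without FW11K replicate 2 or without FW11K replicate 3, again 2 of the 6 passed, with adjusted p from 0.00617 to 0.0276 and from 0.00662 to 0.0294. Without SW33K replicate 2 or 3, 5 of the 6 passed. With replicates 2 and 3 averaged 5 of the 6 passed, and with only the 6 libraries of the comparison in the fit 0 of the 6 did (adjusted p from 0.0117 to 0.0427). Without a filter on low values 2 of the 6 passed, ENSGACG00000019061 and ENSGACG00000019063 (adjusted p over the 6 from 0.00618 to 0.0206). The direction was upward for all 6 in each of these fits.

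**Figure D4:**
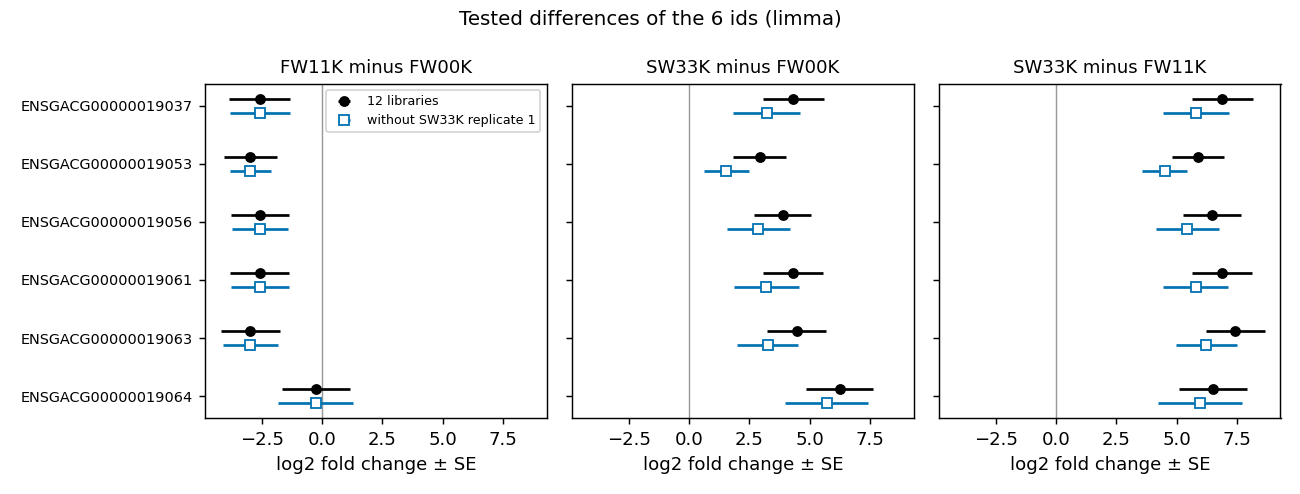
log2 fold change ± SE (limma) of the 6 identifiers in the comparisons without FW33K, for all 12 libraries (filled circles) and without SW33K replicate 1 (open squares). The SW33K minus FW11K differences are 5.88 to 7.43 with all libraries and 4.50 to 6.22 without that library, and the FW11K minus FW00K differences are at or below -0.27.

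The other 35 members showed nothing like these levels. Of them, 24 averaged 1 FPKM or more and 11 did not. The 11 stayed at or below 4.11 FPKM, and ENSGACG00000019067 was listed at 0 in all 12 libraries. FW33K lay wholly below FW00K in 20 of the 24, where 79.6% of all genes did, and wholly above in 1 of the 24. Against FW11K it lay wholly below in 15 of the 24 (63% of all genes). SW33K lay wholly below FW00K in 15 of the 24 (56.2% of all genes) and wholly below FW11K in 11 of the 24 (29.4% of all genes). The most abundant, ENSGACG00000019050, had 89.9, 119 and 122 FPKM in FW00K and 79.7, 30.7 and 30.1 FPKM in FW11K. It had 51.1, 58.2 and 52.2 FPKM in FW33K and 56.2, 77.6 and 77.8 FPKM in SW33K.

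A few of the 35 had their highest value in an FW33K library and not in SW33K replicate 1. ENSGACG00000019040 (B3GNT1) had 7.31, 13.4 and 12.0 FPKM in FW33K, 3.81, 1.33 and 1.38 FPKM in FW00K, 1.29 to 1.57 FPKM in FW11K and 0.983 to 1.18 FPKM in SW33K. FW33K was above all other libraries, and SW33K did not differ from FW00K past the threshold (log2 fold change -0.50, SE 0.32, adjusted p = 0.212, limma). ENSGACG00000019038 had 0.790, 3.17 and 4.11 FPKM in FW33K and was listed at 0 elsewhere, apart from 0.0556 FPKM in FW11K replicate 2. ENSGACG00000019036 (SLC2A13) had 0.618, 2.67 and 2.30 FPKM in FW33K and at most 0.715 FPKM elsewhere, in SW33K replicate 1, above FW33K replicate 1. These 2 identifiers stand on either side of ENSGACG00000019037 in the order of identifiers. ENSGACG00000019068 (PYROXD1) ranged from 9.56 to 22.4 FPKM over the 12 libraries, and neither FW11K nor SW33K differed from FW00K past the threshold (adjusted p = 0.792 and 0.166, limma). With median-ratio scaling it was higher in SW33K than in FW00K, by 1.33 (adjusted p = 0.00127).

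**Figure D5:**
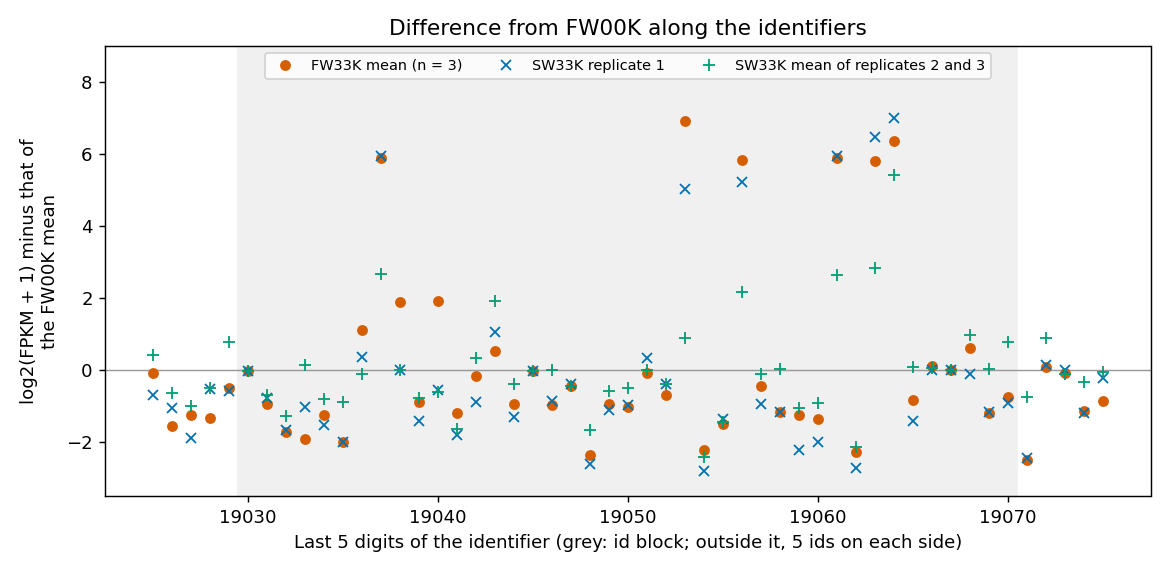
Difference in log2(FPKM + 1) from the FW00K mean, by identifier, for the FW33K mean, SW33K replicate 1 and the mean of SW33K replicates 2 and 3. The 6 identifiers stand apart from their neighbours, most of which lie below 0, and ENSGACG00000019038 and ENSGACG00000019040 lie above 0 in FW33K only.

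On the deposited FPKM with all 12 libraries, no member among the 24 passed upward in the tests without FW33K. With median-ratio scaling 2 of them were higher in SW33K than in FW00K, ENSGACG00000019043 (2.55, adjusted p = 0.00204, limma) and ENSGACG00000019068. Both also passed with quantile normalization (0.00165 and 0.00132). Over the 15503 genes, 1650 and 1605 were higher in these fits. ENSGACG00000019043 had 15.2, 3.98 and 3.77 FPKM in FW00K and 17.2, 31.0 and 32.5 FPKM in SW33K. It passed with equal FPKM sums as well (1.97, adjusted p = 0.00872, limma), where 584 of the 15503 genes were higher. In SW33K against FW00K, 6 of the 24 fell, where 20.1% of all genes did, and their log2 fold changes are to be read beside the median of -0.69 over all genes. The largest fall was that of ENSGACG00000019054, from 43.2, 66.0 and 64.9 FPKM in FW00K to 7.53, 9.92 and 10.3 FPKM in SW33K (-2.51, SE 0.35, adjusted p = 0.000290, limma). It was followed by ENSGACG00000019048 (-1.96), ENSGACG00000019041 (-1.69), ENSGACG00000019055 (-1.40), ENSGACG00000019032 (-1.40) and ENSGACG00000019034 (-1.03). With median-ratio scaling the calls of ENSGACG00000019032, ENSGACG00000019034 and ENSGACG00000019055 were lost (adjusted p = 0.0211, 0.0588 and 0.123). With quantile normalization those of ENSGACG00000019034, ENSGACG00000019041 and ENSGACG00000019055 were lost (adjusted p = 0.130, 0.0274 and 0.201, limma). Without a filter on low values that of ENSGACG00000019055 was lost (0.0105). The call of ENSGACG00000019034 was also lost without any 1 of the FW00K libraries (0.0227 to 0.0256), as well as without FW11K replicate 2 or 3, FW33K replicate 2 or 3 or SW33K replicate 3 (0.0109 to 0.0129). That of ENSGACG00000019055 was lost without any 1 of the FW00K or SW33K libraries (0.0104 to 0.0246). With replicates 2 and 3 averaged none of these 6 passed. With the replicate number as a block all 6 passed, and ENSGACG00000019035 (-1.26, adjusted p = 0.00423), ENSGACG00000019059 (-1.43, 0.00335) and ENSGACG00000019060 (-1.27, 0.00154) fell as well.

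In SW33K against FW11K, 4 of the 24 fell, where 10.5% of all genes did. They were ENSGACG00000019062 (-3.11, SE 0.75, adjusted p = 0.00934, limma), ENSGACG00000019054 (-2.44), ENSGACG00000019048 (-1.72) and ENSGACG00000019055 (-1.62). Without FW11K replicate 2, ENSGACG00000019054 alone of these passed, and so it was without FW11K replicate 3. The call of ENSGACG00000019062 was also lost without FW00K replicate 2 or any 1 FW33K or SW33K library (adjusted p = 0.0114 to 0.0393), that of ENSGACG00000019048 without SW33K replicate 1 (0.0158), and that of ENSGACG00000019055 without SW33K replicate 3 (0.0180). With replicates 2 and 3 averaged none of the 4 passed (0.0257 to 0.125), and with median-ratio scaling ENSGACG00000019055 (0.0109) and ENSGACG00000019062 (0.0114) did not. With quantile normalization ENSGACG00000019055 (adjusted p = 0.0121, limma) and ENSGACG00000019062 (0.0204) did not pass either. Without a filter on low values the call of ENSGACG00000019048 was lost as well (0.0116). ENSGACG00000019033 was higher in SW33K than in FW11K without SW33K replicate 1, by 0.94 (adjusted p = 0.00850), and with equal FPKM sums, by 0.93 (0.00693). With equal sums ENSGACG00000019068 was higher there too (0.88, adjusted p = 0.00788, limma). Over the 15503 genes, 808 were higher in SW33K than in FW11K without SW33K replicate 1, and 1814 with equal sums. In FW00K against FW11K none of the 24 passed, but without SW33K replicate 1 3 of them were lower in FW11K, ENSGACG00000019032 (-0.99, adjusted p = 0.00710), ENSGACG00000019034 (-0.87, 0.00288) and ENSGACG00000019033 (-0.80, 0.00979). Without FW11K replicate 1 the calls were others, ENSGACG00000019050 (-1.81, adjusted p = 0.00114) and ENSGACG00000019049 (-1.65, 0.00182), both lower in FW11K. With equal FPKM sums 7 of the 24 were lower in FW11K, by log2 fold changes from -1.71 to -0.91. With these sums 4643 of the 15503 genes were lower there, a similar share. Over all genes the count lower in FW11K was 2010 without SW33K replicate 1 and 1295 without FW11K replicate 1.

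ENSGACG00000019062, whose identifier stands between those of ENSGACG00000019061 and ENSGACG00000019063, ran opposite to them. It had 35.1, 6.005 and 4.78 FPKM in FW00K, 6.92, 50.7 and 50.6 FPKM in FW11K, 1.14, 3.14 and 2.87 FPKM in FW33K and 1.49, 3.39 and 2.01 FPKM in SW33K. Its 3 highest libraries, FW00K replicate 1 and FW11K replicates 2 and 3, were those in which the 6 genes summed lowest. Over the 12 libraries its r with the sum of the 5 most abundant genes of FW33K was -0.93 on log2(FPKM + 1). The r of the other 23 tested members with that sum ranged from -0.91 to 0.52, the highest being that of ENSGACG00000019040. A strongly negative r was not particular to ENSGACG00000019062. It was -0.91 for ENSGACG00000019055, -0.89 for ENSGACG00000019048 and -0.86 for ENSGACG00000019054. The r of all genes with that sum is not given here. These genes were set side by side after their values were seen.

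Outside the stretch, the 10 genes whose pattern was most like that sum had r from 0.934 to 0.981 over the 12 libraries, which share the group differences. The closest was ENSGACG00000016183, with 87.4, 202 and 191 FPKM in FW00K, 131, 41.4 and 42.1 FPKM in FW11K, 935, 1519 and 1424 FPKM in FW33K and 682, 416 and 421 FPKM in SW33K. Like the 6, it was lowest in FW11K replicates 2 and 3 and, within SW33K, highest in replicate 1. Its FW33K mean was 8.07 times the FW00K mean. ENSGACG00000008365 went from 17.2, 41.7 and 38.5 FPKM in FW00K to 497, 493 and 482 FPKM in FW33K, or 15.1 times in the means. ENSGACG00000016460 went from 1.98, 3.96 and 4.35 FPKM to 47.5, 96.5 and 92.9 FPKM. The sources used here gave no name for these 3 or for ENSGACG00000004940.

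The named genes among the 10 had smaller ranges. PPIB (ENSGACG00000007238), cyclophilin B, which helps secreted proteins fold in the endoplasmic reticulum, had 243, 417 and 414 FPKM in FW00K and 1230, 2356 and 2236 FPKM in FW33K. MAN2A1 (ENSGACG00000015458), a Golgi mannosidase that trims sugar chains, had a FW33K mean 1.96 times that of FW00K. AVPR2 (copy 1 of 2, ENSGACG00000008681), a vasopressin receptor, had 2.46, 4.93 and 4.46 FPKM in FW00K, 4.88, 1.33 and 1.09 FPKM in FW11K, 16.6, 21.4 and 21.7 FPKM in FW33K and 9.33, 6.17 and 5.35 FPKM in SW33K. The others were TBC1D5 (ENSGACG00000006967), which acts on Rab GTPases in membrane traffic, PPP4R4 (ENSGACG00000013637), a subunit of protein phosphatase 4, and GPR20 (copy 1 of 2, ENSGACG00000008943), a G protein-coupled receptor, with FW33K means 4.56, 3.03 and 4.95 times those of FW00K. These genes were picked for their likeness to values that include FW33K, so none of these ratios was tested.

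Genes of the secretory pathway were followed as well. These are the genes that move new proteins into the endoplasmic reticulum, fold them and carry them to the Golgi. Of 63 symbols 46 were matched to 57 genes, of which 11 are numbered copies of SSR1. Symbols came only from genes that the study chose on these samples, so the counts are not independent evidence of a direction. For the same reason all genes are no like set to compare with. In SW33K against FW00K, 30 of the 57 rose and 0 fell, where 1.66% of all genes rose and 20.1% fell. Their median log2 fold change was 1.47 against -0.69 over all genes. The 46 genes that are not SSR1 held all 30, with a median of 1.75. With median-ratio scaling 57 rose, without SW33K replicate 1 39 rose, and with replicates 2 and 3 averaged 3 did. Of the 15503 genes, 1650, 459 and 22 rose in these fits. PDIA6 and PDIA4, disulfide isomerases that form the bonds of folding proteins, rose most, by 3.47 (SE 0.30, adjusted p = 3.5e-05, limma) and 3.31 (SE 0.31). PDIA6 had 55.5, 95.7 and 93.5 FPKM in FW00K and 844, 907 and 906 FPKM in SW33K, so here SW33K replicate 1 did not stand apart. COPB2, a coat protein of transport vesicles, and SEC62, a partner of the translocation pore, had the lowest values (0.27 and 0.37).

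In FW33K against FW00K, 27 of the 57 rose and 0 fell (1.71% of all genes rose and 49.6% fell), with a median of 1.27 against -1.20 over all genes. The study chose its genes by differences that include FW33K against FW00K in these samples. These counts are therefore not independent evidence of a direction, and all genes are no like set to compare with. With median-ratio scaling 57 rose, and with replicates 2 and 3 averaged 4 did, where 1796 and 69 of the 15503 genes did. In FW11K against FW00K none of the 57 passed and the median was 0.55 against -0.34 over all genes. With median-ratio scaling 7 of them rose, where 658 of the 15503 genes did. SEC61B, a subunit of the translocation pore, had the highest value there (1.56, SE 0.40, adjusted p = 0.0215, limma). It stood at 482 FPKM in FW11K replicate 1 against 187 and 190.4 FPKM in replicates 2 and 3. SPCS1, of the signal peptidase, had 1.05, and SEC62 and CREB3L2, a transcription factor of the secretory pathway, had the lowest values (-0.47 and -0.42).

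Enzymes that attach mucin-type sugar chains moved in both directions, with 10 genes matched for 7 of 27 symbols. Here too the symbols came only from genes that the study chose on these samples, so all genes are no like set to compare with. In SW33K against FW00K, 2 rose and 3 fell, where 1.66% of all genes rose and 20.1% fell. GALNT8 (copy 2 of 2) and GALNT6, which start such chains, rose by 2.73 and 1.86, while B3GNT3 and GCNT3 (copy 1 of 2), which extend or branch them, fell by 2.05 and 1.45. With median-ratio scaling 2 rose and 1 fell, where 1650 of the 15503 genes rose and 1433 fell. With replicates 2 and 3 averaged 1 rose and 0 fell, where 22 of all genes rose and 331 fell. With the replicate number as a block GALNT6 did not pass (adjusted p = 0.0102, limma). In FW11K against FW00K both copies of GCNT3 fell, by 2.10 (copy 2 of 2) and 1.74 (copy 1 of 2), and none rose, where 4.17% of all genes fell and 0.284% rose. With replicates 2 and 3 averaged neither passed (adjusted p = 0.166 and 0.267, limma). The highest values were 0.38 for GALNT6 and -0.03 for B3GNT3. In FW33K against FW00K 4 rose and 2 fell, where 1.71% of all genes rose and 49.6% fell. With median-ratio scaling 6 rose and 2 fell, where 1796 of the 15503 genes rose and 1147 fell. With replicates 2 and 3 averaged 1 rose and 2 fell, where 69 of all genes rose and 954 fell. GALNT6 stood at 107 FPKM in FW11K replicate 1 against 34.2 and 34.1 FPKM in replicates 2 and 3.

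Genes of sex steroid action were followed because androgens act on the stickleback kidney, and 5 of 13 symbols were matched to 5 genes. SHBG, a carrier of sex steroids in blood, fell by 2.82 in FW11K and by 2.64 in SW33K against FW00K, and PGR, the progesterone receptor, fell by 2.27 in FW11K and decreased by 2.37 in SW33K. All 4 falls passed (adjusted p from 7.4e-05 to 0.00151, limma), and no gene of the 5 rose in these 2 comparisons. Of all genes, 4.17% fell and 0.284% rose in FW11K, and 20.1% fell and 1.66% rose in SW33K. The symbols came only from genes that the study chose on these samples, so these calls are not independent evidence of a direction. Again, all genes are no like set to compare with. With replicates 2 and 3 averaged only the fall of SHBG in SW33K passed (0.00976, and 0.0122 to 0.125 for the others). STAR, which brings cholesterol into mitochondria, had a log2 fold change of 1.47 in FW11K, and it rose with median-ratio scaling (adjusted p = 0.00805) and without SW33K replicate 1 (0.00539). FKBP5, a co-chaperone of steroid receptors that is induced by steroids in mammals, had 56.0 to 57.3 FPKM in FW00K, 360, 69.5 and 72.7 FPKM in FW11K, 236 to 270 FPKM in FW33K and 182 to 185 FPKM in SW33K. It rose in FW33K against FW00K by 2.13 (SE 0.49, adjusted p = 0.00255), but not with replicates 2 and 3 averaged (0.0261). In SW33K its log2 fold change was 1.68 (adjusted p = 0.0174, and 0.00813 with median-ratio scaling), and in FW11K it was 1.09. ESR2, an estrogen receptor, had 27.2 FPKM in FW11K replicate 1 against 6.18 and 6.24 FPKM. FW11K replicate 1, which held the highest levels of the 6 abundant genes within FW11K, thus also held the highest FKBP5, ESR2, SEC61B and GALNT6 there. This was noticed after the values were seen, and rests on 1 library. It did not extend to the other groups. In replicates 1, 2 and 3 the secretory pathway genes summed to 11531, 16325 and 15196 FPKM in FW33K and to 14201, 17744 and 17378 FPKM in SW33K. The mucin-type genes summed to 214, 499 and 472 FPKM in FW33K and to 245, 229 and 240 FPKM in SW33K. For the sex steroid genes the sums were 294, 279 and 261 FPKM in FW33K and 203, 214 and 208 FPKM in SW33K.

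Markers of other cell types were read from the same symbols, so that most defining markers could not be looked up. The matched ones were among genes that the study chose for differing in these samples. Their counts are therefore not independent evidence of a direction, and all genes are no like set to compare with. The 6 genes matched for kidney tubule and glomerulus (NPHS1, PODXL, SLC12A1, SLC12A3 and both copies of WT1) summed to between 570.4 and 603 FPKM in FW00K, between 138 and 252 FPKM in FW11K, between 56.6 and 84.9 FPKM in FW33K and between 79.7 and 316 FPKM in SW33K. They were present in every library, and all 6 fell in FW33K against FW00K, with a median of -2.97, where 49.6% of all genes fell and the median over all genes was -1.20. With median-ratio scaling 5 of the 6 fell, and so did 5 with replicates 2 and 3 averaged. Over the 15503 genes, 1147 and 954 fell in these fits. In SW33K they summed to 79.7 FPKM in replicate 1, where the 6 abundant genes were highest, and to 314 and 316 FPKM in replicates 2 and 3. In FW11K the sum was 138 FPKM in replicate 1 and 249.5 and 252 FPKM in replicates 2 and 3. In FW33K it was 56.6 FPKM in replicate 1 and 84.9 and 81.2 FPKM in replicates 2 and 3. In FW00K it was 570.4 FPKM in replicate 1 and 603.1 and 602.6 FPKM in replicates 2 and 3. There replicate 1 was lowest both in these markers and in the 6 abundant genes. The median FPKM of the 15503 genes differed between libraries as well. In replicates 1, 2 and 3 it was 4.39, 6.75 and 6.12 in FW33K and 5.43, 11.0 and 10.6 in SW33K. It was 10.3, 11.8 and 11.5 in FW11K and 16.7, 14.8 and 14.4 in FW00K. The part of this general shift in the marker sums was not tested. The 3 muscle genes summed to between 31.6 and 294 FPKM in FW00K and to at most 17.5, 1.03 and 5.03 FPKM in FW11K, FW33K and SW33K. The 3 genes matched for blood-forming cells summed to 52.1 to 61.4, 132 to 222, 6.58 to 73.9 and 8.52 to 19.1 FPKM in these groups. AHSG, the only liver marker matched, stayed at or below 4.78 FPKM. PIWIL1, the only testis marker matched, was listed at 0 in FW33K and stayed at or below 5.86 FPKM, and no ovary marker was matched. The part of these cell types in the levels of the 6 abundant genes was not tested.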

How the data were processed

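Kidney poly(A) RNA of 12 fish, 3 in each of 4 groups, was sequenced by the authors, who dropped reads that held a base of quality under 20, trimmed reads to 75 bases and aligned them to the masked BROADS1 genome with TopHat2 2.0.3, allowing 2 mismatches for freshwater and 3 for marine fish. The deposited values are FPKM per gene, made by the authors with Cufflinks 2.0.2. The labels do not say that same-numbered replicates share anything, and the study took RNA from each fish on its own. The deviations of same-numbered libraries from their group means correlated at 0.28 to 0.42 in FW00K and SW33K, over 0.1 in every pair. This was not so in FW00K and FW11K (-0.028 to 0.14) or FW11K and SW33K (-0.050 to 0.15). With FW33K the values were 0.099 to 0.30 for FW00K, 0.25 to 0.38 for FW11K and 0.14 to 0.35 for SW33K. Since replicates 2 and 3 are alike, such values cannot show that the number pairs fish. Libraries of different number were not compared. A fit with the replicate number as a block is given beside the FW00K and SW33K results that it changed.

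From these values, shares of the FPKM sum, ratios and overlaps were computed (Python 3.11.15, pandas 2.3.3). Differences were tested with limma 3.58.1 in R 4.3.3 (trend, 1 fit over 12 libraries) on log2(FPKM + 1), for 15503 of 20860 genes that averaged 1 FPKM or more, with Benjamini-Hochberg adjustment and a threshold of 0.01. The fit was tested on simulated data with independent noise for each library. Such data cannot show how the fit behaves where replicates 2 and 3 are alike. Members with a highest value of at least 100 FPKM, a symbol or a call without FW33K were named, as were the 10 genes most alike and the 2 highest and 2 lowest of each list. The members, lists and tests were chosen with earlier results of these data known. Symbols came from the study's own list of chosen genes, and 2 of the listed symbols are not reported here. Scaling, filters, pseudocount, threshold and left-out libraries were varied.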

Additional observations from a re-analysis of the deposited data

How the results depend on the processing

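FPKM does not give the reads behind a value, groups of 3 limit every test, and 1 library often decided a call. With a pseudocount of 0.1, 279 genes passed between FW00K and FW11K in place of 691, and with a mean of at least 5 FPKM 346 did. Without a filter on low values 5 members passed between FW11K and SW33K in place of 10. With median-ratio scaling 1252 genes passed between FW00K and FW11K and 3241 in place of 1961 between FW11K and SW33K, and with quantile normalization 1151 (with 1 member in place of 0) and 3125. With equal FPKM sums outside the stretch, 4732 genes and 7 members passed between FW00K and FW11K, 5256 genes in place of 3381 between FW00K and SW33K, and 3211 between FW11K and SW33K. With replicates 2 and 3 averaged, genes and members passing were 0 and 0, 353 and 1 (in place of 7), and 220 and 5 in these comparisons. At an adjusted p under 0.05 they were 2375 and 4, 6310 and 17, and 3828 genes. With only the libraries of a comparison, 1 member passed between FW00K and FW11K, 2231 genes between FW00K and SW33K, and 630 genes and 1 member between FW11K and SW33K.

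Leaving out 1 library at a time gave 29 to 2167 genes and 0 to 3 members between FW00K and FW11K, 1749 to 4357 genes and 4 to 14 members between FW00K and SW33K, and 811 to 3463 genes and 3 to 12 members between FW11K and SW33K. The ratio of the summed members of FW33K to FW00K ranged from 36.7 to 61.8 in this way, and was 132 with median-ratio scaling and 78.4 with equal sums. That of SW33K to FW00K ranged from 5.06 to 25.9, and was 46.2 with median-ratio scaling.

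Small member differences changed sign, none of them past the threshold in either fit. Between FW00K and FW11K, ENSGACG00000019064 was at 0.16 (median-ratio scaling), 0.17 (quantile), 1.25 (averaged) and -2.57 to 0.96 without 1 library. ENSGACG00000019048 was at 0.16, 0.034 and, without 1 library, -0.41 to 0.093, and ENSGACG00000019054 at 0.34, 0.049 and -0.27 to 0.32. ENSGACG00000019055 was at -0.12 (equal sums) and, without 1 library, -0.077 to 0.54. Between FW11K and SW33K, ENSGACG00000019034 was at 0.16, 0.20, 0.23 (equal sums) and, without 1 library, -0.31 to 0.085, and ENSGACG00000019032 at 0.031 (equal sums). The cause of these changes was not tested.

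Deviations of same-numbered replicates correlated over 0.1 throughout in FW00K and SW33K, but not in FW00K and FW11K or in FW11K and SW33K. They also did so in FW11K and FW33K and in FW33K and SW33K. Libraries of different number were not compared, so this cannot show that the number pairs fish. A fit with the replicate number as a block called 768, 4091 and 2466 genes and 0, 10 and 12 members in the 3 comparisons, each within 1.5 times the count without it.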
